A study of Mus musculus with 16 samples.

Results

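The 8 genes described here are Csf1r, its ligand genes Csf1 and Il34, and 5 genes used to mark macrophages, Siglec1, Adgre1, Cd68, Vsig4 and Cd14. They were chosen by name, and not by a threshold on their values, among the 55421 genes of the count table. RNA sequencing was used to measure expression in subcapsular sinus macrophages (SSMs) and medullary sinus macrophages (MSMs), which were sorted from tumor-draining (tdLNs) and non-draining lymph nodes (ndLNs) of male C57B/6 mice carrying MOC2, a transplantable squamous cell carcinoma line. Nodes were taken 2 weeks after intradermal implantation in the flank, and the ndLNs came from tumor-bearing mice too, so that no group comes from a mouse without a tumor. Each library was made from nodes of 2 pooled mice (2 tdLNs or 6 ndLNs), and each of the 4 groups has 2 libraries. The tumor was implanted near the inguinal node, and the ndLNs were contralateral inguinal, axillary and brachial nodes. The tdLN and ndLN groups thus differ in node site as well as in drainage, and the part of the site was not tested. Live CD45+ cells without CD3, B220 and Ly6G, which mark T cells, B cells and neutrophils, were gated on CD11b and on CD169, the protein that Siglec1 encodes, in both subsets, and then split into SSMs, CD11c- with low side scatter, and MSMs, CD11c+ with high side scatter.

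CSF1R is the receptor tyrosine kinase on which most tissue macrophages depend for survival and renewal, and its ligands are the cytokines CSF1 and IL-34. Lymph node sinus macrophages are classically recognised by CD169 (sialoadhesin, a lectin for sialylated glycans) and, in the medulla, also by F4/80, the product of Adgre1. CD68 is a heavily glycosylated lysosomal protein of the LAMP family, VSIG4 (CRIg) is a complement receptor of some resident macrophages, and CD14 hands lipopolysaccharide to the TLR4 complex.

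RefSeq start-site windows on GRCm38.p6 matched only 3 of the 8 genes, and the 250 bases before each start are shown for these 3. Csf1 was called between the subsets. Cd68 was called between the subsets in ndLNs and between the nodes of SSMs, and Vsig4 had 0 counts. The windows are chr3:107760470-107760719 for Csf1, chr11:69666171-69666420 for Cd68 and chrX:96293439-96293688 for Vsig4, all on the minus strand and written 5′ to 3′ along the gene. Capitals mark letters found on either strand for PU.1 (GAGGAA), the myeloid factor that Spi1 encodes, for AP-1 (TGANTCA) and for NF-kB (GGGA, any base, then TTTCC).
Csf1: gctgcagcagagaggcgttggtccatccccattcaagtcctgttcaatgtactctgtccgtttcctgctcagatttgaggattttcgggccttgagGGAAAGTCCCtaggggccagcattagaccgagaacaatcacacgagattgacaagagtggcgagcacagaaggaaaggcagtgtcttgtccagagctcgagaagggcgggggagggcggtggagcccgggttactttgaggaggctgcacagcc
Cd68: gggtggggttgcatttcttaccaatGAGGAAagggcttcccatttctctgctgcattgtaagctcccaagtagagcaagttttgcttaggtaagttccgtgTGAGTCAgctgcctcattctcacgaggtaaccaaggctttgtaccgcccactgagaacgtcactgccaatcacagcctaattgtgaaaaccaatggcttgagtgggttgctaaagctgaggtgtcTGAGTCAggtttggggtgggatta
Vsig4: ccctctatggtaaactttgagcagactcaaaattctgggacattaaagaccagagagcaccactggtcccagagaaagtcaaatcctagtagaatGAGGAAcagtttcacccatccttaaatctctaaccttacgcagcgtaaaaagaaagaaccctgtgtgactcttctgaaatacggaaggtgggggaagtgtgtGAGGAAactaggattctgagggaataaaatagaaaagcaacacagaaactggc
The NF-kB letters stood once before Csf1, on the strand opposite to the gene. The AP-1 letters stood at 2 places before Cd68 and the PU.1 letters at 1, and the PU.1 letters stood at 2 places before Vsig4. None of these matches overlapped another, and the letters TATAAA were in none of the 3 windows. Among 32851 windows of the same length, 23.3% held the PU.1 letters, 6.75% the AP-1 letters, 0.356% the NF-kB letters and 12.4% TATAAA, and a match describes letters and not a bound site.

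On GRCm38 with the GENCODE M21 annotation, Csf1r (ENSMUSG00000024621) is on the plus strand of chromosome 18 from 61100598 to 61132149, and Cd14 (ENSMUSG00000051439) on the minus strand of the same chromosome from 36725067 to 36726798. Csf1 (ENSMUSG00000014599) lies on the minus strand of chromosome 3 from 107741048 to 107760469, Il34 (ENSMUSG00000031750) on that of chromosome 8 from 110741829 to 110805924, and Siglec1 (ENSMUSG00000027322) on that of chromosome 2 from 131069220 to 131086765. Cd68 (ENSMUSG00000018774) lies on the minus strand of chromosome 11 from 69664213 to 69666153, Vsig4 (ENSMUSG00000044206) on that of chromosome X from 96247203 to 96293438, and Adgre1 (ENSMUSG00000004730) on the plus strand of chromosome 17 from 57358691 to 57483527. Values are counts per gene. The exons of Csf1r overlap those of Hmgxb3 on the opposite strand over 873 bases, which is 15.1% of the exon bases of Csf1r, and whether counting used strand is not given in the sources used here. Of the 50-base windows of the transcripts, 14.3% for Csf1r (all in Hmgxb3), 1.33% for Siglec1 and 1.30% for Il34 were found in other genes as well, and 0% for Adgre1, Csf1, Cd68, Vsig4 and Cd14.

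The 8 libraries held between 42972328 and 48130352 counts, and levels below are TMM-normalised CPM (counts scaled to a common library size), given for pool 1 and then pool 2. The limit that a count of 0 allows, 3 counts, was 0.0623 to 0.0698 CPM before TMM scaling and covers counting error only. Differences are log2 fold changes with their standard error (SE) from edgeR's quasi-likelihood test over 21085 genes, and a gene is called changed at a Benjamini-Hochberg adjusted p under 0.01 and a mean normalised count over 100 per lane. Of the 8 genes, 7 passed the filter on low counts and 6 exceeded the mean count, with Vsig4 failing the first and Il34 the second. The p-values rest on 1 spread per gene, estimated over all 8 libraries and all 4 groups with information from other genes. A shift shared by libraries of the same pool number was removed first. They do not measure the spread within the 2 groups compared, each of which has only 2 libraries. In sorted bulk samples, fewer cells of a type and less RNA per cell cannot be told apart.

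The labels were checked against markers. Itgam (CD11b) ranged from 54.6 to 124 CPM in SSMs and from 9.64 to 20.4 in MSMs, and Itgax (CD11c) from 63.6 to 149 in SSMs and from 316 to 418 in MSMs. Some genes that define dendritic cells were high in MSMs, where Flt3 ranged from 672 to 852 CPM, Xcr1 from 630 to 752 and Clec9a from 132 to 203. In SSMs, Flt3 ranged from 27.9 to 59.3 CPM, Xcr1 from 14.2 to 33.6 and Clec9a from 0.807 to 2.08. The whole list of 10 dendritic cell genes was less divided. Its sum was at least 1605 CPM in SSMs from ndLNs and 955 in SSMs from tdLNs. The highest sums of MSMs were 4242 CPM for ndLNs and 4570 for tdLNs. Of the 10 genes, 6 were called lower in SSMs of ndLNs and 8 in SSMs of tdLNs. Conversely, the T cell gene Cd3e lay between 75.0 and 151 CPM in SSMs against 2.14 to 16.3 in MSMs, although cells with CD3 protein had been gated out. The mast cell protease gene Cpa3 lay between 36.1 and 562 CPM in SSMs and at most at 0.330 in MSMs. Kit, the stem cell factor receptor gene of the same list, lay instead between 269 and 614 CPM in MSMs and between 61.6 and 481 in SSMs. The libraries labelled MSMs thus had little transcript of Siglec1 beside high Flt3, Xcr1 and Clec9a, and those labelled SSMs held genes of lymphoid and mast cells. Vsig4 had 0 counts in both subsets and does not set them apart. Adgre1, whose product marks macrophages of the medulla, was not higher in MSMs. Its log2 fold change of SSMs against MSMs was 0.58 in ndLNs and 1.61 in tdLNs, neither called. Over both node types it was 1.09, which was called (edgeR), although SSM and MSM libraries overlapped. This direction is opposite to the one that the label MSM would give. Other macrophage genes were high in MSMs, where Cd14 exceeded at least 98.8% of the genes tested in ndLNs and Cd68 at least 99.1%. Of 16 further macrophage genes, Timd4 and Mertk were called lower and Fcgr1 higher in SSMs than in MSMs from ndLNs. In tdLNs, 4 of the 16 were called higher in SSMs and 0 lower (edgeR). The groups keep the names of the labels.

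Siglec1, Csf1r and Csf1 were higher in SSMs than in MSMs in both types of node, Cd68 was lower in SSMs of ndLNs, and Cd14 was higher in SSMs of tdLNs. In SSMs, Siglec1, Cd68, Csf1r and Cd14 were higher in tdLNs than in ndLNs, while Csf1 and Adgre1 were not called. Il34 was near the counting limit and Vsig4 had 0 counts throughout.

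Between SSMs and MSMs from ndLNs, 4 of the 8 genes were called, 3 higher and 1 lower in SSMs, against 12.1% of all genes tested in either direction. In tdLNs, 4 were called, all higher in SSMs, against 5.16% of all genes higher. Between tdLNs and ndLNs, 4 were called in SSMs, all higher in tdLNs, against 1.98% of all genes higher. In MSMs 0 were called (edgeR), against 0.0237% of all genes in either direction. Only 1 of the genes, Siglec1, had an unadjusted p under 0.05 in MSMs, where 2515 of all genes did. A DESeq2 Wald test called 1, again Siglec1, and 503 of all 21085 genes.

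The test of whether the node difference itself differed between the subsets called 0 of the 8 genes (edgeR), against 0.0379% of all genes. Here 3 of the genes, Cd68, Cd14 and Csf1r, had an unadjusted p under 0.05, as had 2598 of all genes. DESeq2 called 2, Cd68 and Cd14, and 706 of all 21085 genes. A node difference seen in SSMs is therefore not shown to differ from that in MSMs at the threshold used. Over both types of node, 5 genes were higher in SSMs (Siglec1, Csf1r, Csf1, Cd14 and Adgre1) against 8.04% of all genes, and over both subsets 2 were higher in tdLNs (Siglec1 and Cd68) against 1.23%. These comparisons share libraries, so that their counts do not add to each other. Among the 9996 genes above the mean count, the corresponding shares were 25.5%, 10.9%, 4.18%, 0.05%, 0.08%, 17.0% and 2.6%.

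**Figure D1:**
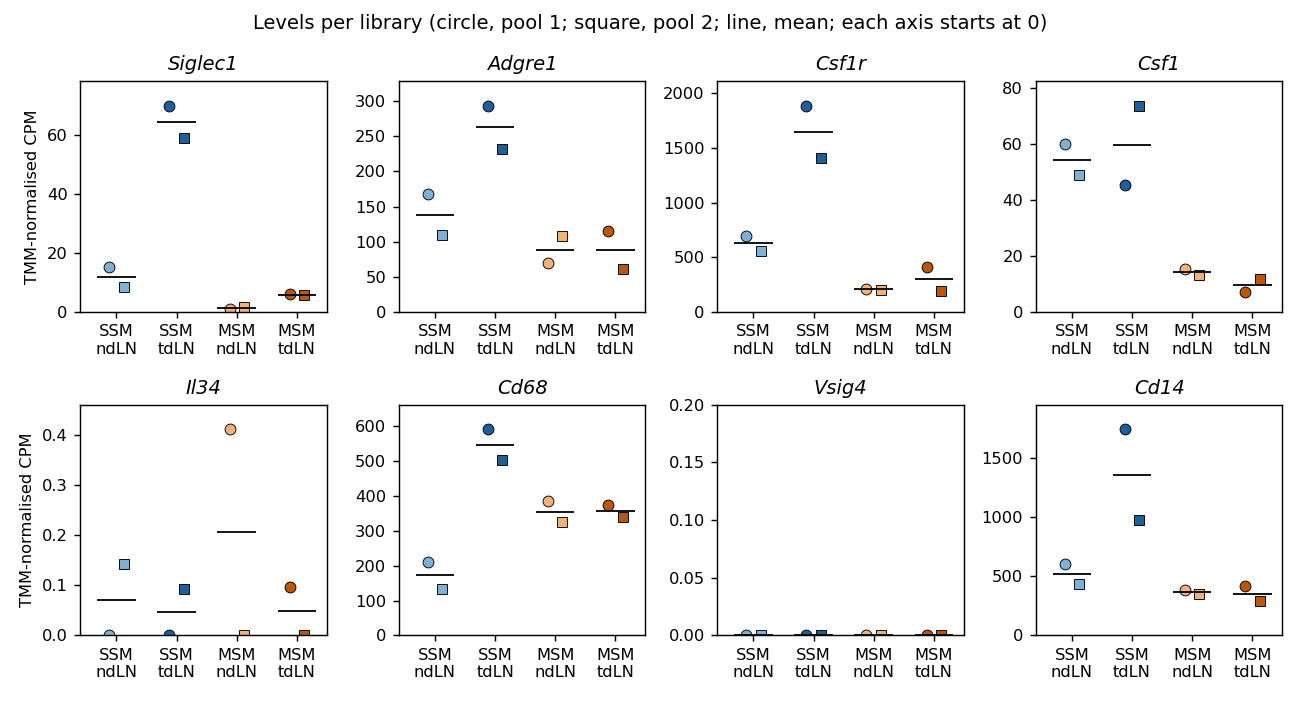
TMM-normalised CPM of each of the 8 genes (y axis, from 0) in the 4 groups (x axis), with circles for pool 1, squares for pool 2 and a line at the mean of both. Csf1r reaches 1887 CPM in SSMs from tdLNs, Cd68 is lowest in SSMs from ndLNs, Il34 stays under 0.5 CPM and Vsig4 lies at 0.

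The receptor gene Csf1r had 694 and 559 CPM in SSMs from ndLNs and 1887 and 1408 in SSMs from tdLNs. In MSMs, it had 209 and 202 CPM in ndLNs and 405 and 194 in tdLNs. All 4 SSM libraries lay above all 4 MSM libraries, the groups of SSMs did not overlap, and those of MSMs did.

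The level of Csf1r was 3.00-fold higher in SSMs than in MSMs in ndLNs (log2 fold change 1.59, SE 0.22, edgeR adjusted p = 0.00186) and 5.69-fold higher in tdLNs (2.51, SE 0.23, adjusted p = 3.91e-04). It was 2.62-fold higher in SSMs from tdLNs than in those from ndLNs (1.39, SE 0.22, adjusted p = 0.00984), just inside the threshold. Of the 16 alternative settings for that node comparison, 10 placed it outside, with adjusted p up to 0.118, among them every setting without a library of SSMs. In MSMs, the 95% interval of the log2 node difference ran from -0.05 to 0.98. Hmgxb3, which overlaps Csf1r, lay between 24.9 and 36.3 CPM in all 8 libraries and was called in none of the comparisons.

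The ligand gene Csf1 had 60.0 and 48.6 CPM in SSMs from ndLNs and 45.2 and 73.5 in SSMs from tdLNs. In MSMs, it had 15.1 and 13.3 CPM in ndLNs and 7.03 and 11.7 in tdLNs. Every SSM library was above every MSM library, while the nodes overlapped in SSMs and the tdLN libraries were the lower ones in MSMs.

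The level of Csf1 was 3.86-fold higher in SSMs in ndLNs (log2 fold change 1.95, SE 0.30, edgeR adjusted p = 0.00293) and 6.28-fold higher in tdLNs (2.65, SE 0.31, adjusted p = 0.0012). Its node difference in SSMs was 0.09, with a 95% interval from -0.55 to 0.74, and in MSMs -0.61, from -1.39 to 0.18. The number of Csf1r counts for each Csf1 count was 11.6 and 11.5 in SSMs from ndLNs, 41.7 and 19.1 in SSMs from tdLNs, 13.8 and 15.3 in MSMs from ndLNs, and 57.6 and 16.5 in MSMs from tdLNs. The subset difference of Csf1 lost its call in each node type when 1 of 3 libraries was left out, with adjusted p up to 0.0425 in ndLNs and 0.0182 in tdLNs.

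The second ligand gene, Il34, had 31 counts in all. In SSMs it had 0 and 7 counts in ndLNs and 0 and 4 in tdLNs, and in MSMs 16 and 0 in ndLNs and 4 and 0 in tdLNs. More than 3 counts were thus found in 1 library of each group and 0 counts in the other, and the interval of its subset difference in ndLNs ran from -6.19 to 3.19 on the log2 scale. A difference of Il34 between groups was not detectable at this depth. Of 3 genes of proteins proposed as further IL-34 receptors (Sdc1, Trem2 and Ptprz1), only 1, Sdc1, exceeded the mean count that a call needs. Sdc1, a heparan sulfate proteoglycan also known as CD138, was called between SSMs and MSMs. Its log2 fold change was 4.93 in ndLNs and 4.74 in tdLNs. That of Trem2, which could not be called, was 1.45 in ndLNs (SE 0.65) and 2.60 in tdLNs (SE 0.58, edgeR adjusted p = 0.0201).

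Siglec1, the gene of the sort marker CD169, had 15.1 and 8.47 CPM in SSMs from ndLNs and 70.0 and 59.2 in SSMs from tdLNs. In MSMs, it had 0.795 and 1.63 CPM in ndLNs and 5.96 and 5.64 in tdLNs. The 4 groups did not overlap, and their order was SSMs from tdLNs, SSMs from ndLNs, MSMs from tdLNs and MSMs from ndLNs.

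Siglec1 was 9.31-fold higher in SSMs than in MSMs in ndLNs (log2 fold change 3.22, SE 0.41, edgeR adjusted p = 0.00115) and 11.1-fold higher in tdLNs (3.47, SE 0.29, adjusted p = 2.76e-04). In SSMs, it was 5.54-fold higher in tdLNs than in ndLNs (2.47, SE 0.26, adjusted p = 0.0026), a call that was lost in 5 of 16 alternative settings, with adjusted p up to 0.0584. In MSMs, the node difference was 2.22 with an SE of 0.45, an interval from 1.16 to 3.28 and an adjusted p of 0.12, which is not a call. The difference between these node differences was 0.25, with an interval from -1.07 to 1.58. Both subsets had been gated on CD169 protein, which the libraries do not measure.

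Adgre1, the gene of F4/80, had 167 and 109 CPM in SSMs from ndLNs, 294 and 233 in SSMs from tdLNs, 69.2 and 108 in MSMs from ndLNs, and 116 and 60.8 in MSMs from tdLNs. The subsets overlapped, with the lower SSM library of ndLNs beside the higher MSM libraries. The pools of MSMs were placed in opposite order in the 2 types of node. Although F4/80 is used as a marker of the medulla, the estimates for Adgre1 were higher in SSMs. Its subset difference was 0.58 in ndLNs (95% interval from -0.19 to 1.34) and 1.61 in tdLNs (0.84 to 2.38, edgeR adjusted p = 0.0142), and neither was called. Over both node types, it was 1.09 (SE 0.23, adjusted p = 0.00956), which was called, although 7 of the 8 fits that left out 1 library did not call it.

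Vsig4 had 0 counts in each of the 8 libraries, which allows at most 0.0698 CPM, before TMM scaling, in any of them. Other genes of resident macrophages were counted, among them Marco, a scavenger receptor of medullary sinus macrophages, with 4.38 to 14.9 CPM, and Cd163, a receptor for haemoglobin complexes, with 0.0552 to 1.99 CPM. Timd4, a phosphatidylserine receptor, lay between 14.7 and 20.6 CPM in SSMs and between 19.8 and 78.6 in MSMs.

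Cd68 had 211 and 134 CPM in SSMs from ndLNs and 591 and 504 in SSMs from tdLNs. In MSMs, it had 385 and 326 CPM in ndLNs and 375 and 341 in tdLNs. The MSM groups overlapped and lay between the SSM groups, so that the subset order differed between ndLNs and tdLNs.

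In ndLNs, Cd68 was 2.09-fold lower in SSMs than in MSMs (log2 fold change -1.06, SE 0.15, edgeR adjusted p = 0.00206). In tdLNs, the difference was 0.61 in the other direction (SE 0.15, adjusted p = 0.0306), which is not a call, although 5 of 16 alternative settings called it. In SSMs, Cd68 was 3.21-fold higher in tdLNs (1.68, SE 0.15, adjusted p = 0.00192), a call lost in 4 of 16 settings with adjusted p up to 0.0419, whereas the interval in MSMs ran from -0.33 to 0.37. The node difference was 1.67 larger in SSMs than in MSMs (SE 0.21, adjusted p = 0.0215), above the threshold of 0.01.

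Cd14 had 604 and 436 CPM in SSMs from ndLNs and 1744 and 980.1 in SSMs from tdLNs. In MSMs, it had 381 and 351 CPM in ndLNs and 417 and 289 in tdLNs. The SSM libraries lay above the MSM libraries, with the 2 pools of SSMs from tdLNs further apart than those of any other group.

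Cd14 was 3.79-fold higher in SSMs than in MSMs in tdLNs (log2 fold change 1.92, SE 0.17, edgeR adjusted p = 3.53e-04). In ndLNs, the difference was 0.48, with a 95% interval from 0.09 to 0.87 and an adjusted p of 0.0805. In SSMs, Cd14 was 2.57-fold higher in tdLNs (1.36, SE 0.17, adjusted p = 0.00407), and in MSMs the interval ran from -0.48 to 0.30. The node call of Cd14 in SSMs was lost in 8 of 16 alternative settings, with adjusted p up to 0.0754. The node difference was 1.45 larger in SSMs than in MSMs (SE 0.24, adjusted p = 0.0411), again above 0.01.

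**Figure D2:**
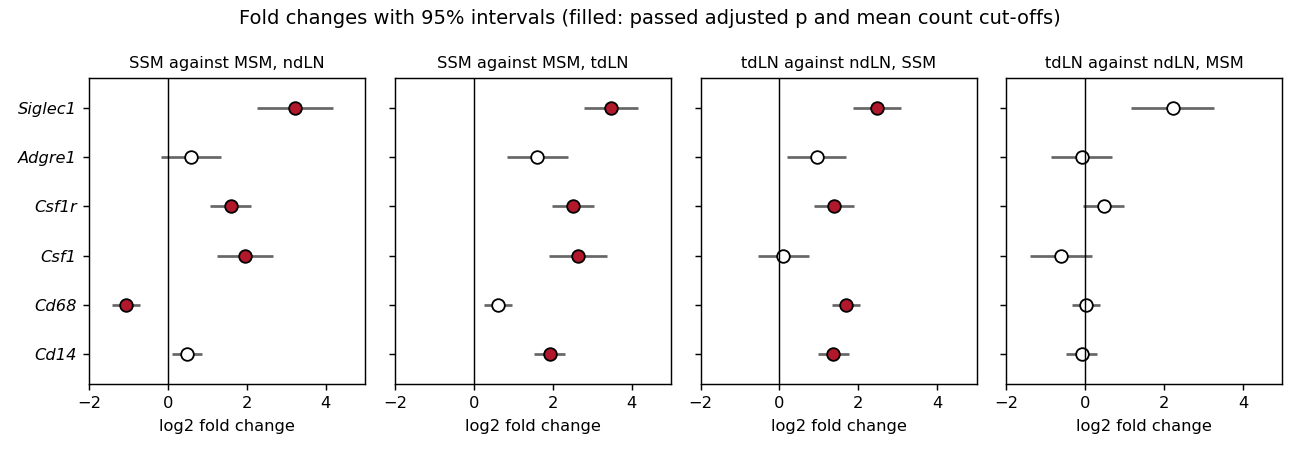
Log2 fold changes (x axis) with 95% intervals (bars) of the 6 genes above the mean count (y axis) in the 4 comparisons of 2 groups, with filled points for genes called. Siglec1, Csf1r and Csf1 are filled in both comparisons of subsets, Cd68 is the only gene called on the negative side, and no point is filled for MSMs, where the bar of Siglec1 runs from 1.16 to 3.28.

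Several calls were lost when libraries were left out. Among SSMs, 0 of the 4 node calls remained when only the 4 SSM libraries were fitted, and 0 remained without pool 2 of SSMs from ndLNs, without pool 1 of SSMs from tdLNs or without pool 2 of SSMs from tdLNs. For SSMs against MSMs in ndLNs, 0 of 4 remained without pool 1 of MSMs from ndLNs. The log2 differences of Siglec1, Csf1r, Cd68 and Cd14 behind these calls stayed on the same side of 0 in every alternative.

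Compared per kilobase of exon, the most abundant of the 8 genes was Cd14 in all SSM libraries, with 252 to 349 CPM per kilobase in ndLNs and 566 to 1007 in tdLNs, followed by Cd68 with 107 to 168 and 401 to 470. In MSMs, the order was reversed, with Cd68 between 259 and 306 CPM per kilobase and Cd14 between 167 and 241. Csf1r followed with 96.8 to 327 CPM per kilobase in SSMs and 33.6 to 70.2 in MSMs, and Adgre1 with 33.6 to 90.7 and 18.8 to 35.7. The ranges of Csf1r and Adgre1 overlapped in MSMs. Csf1 lay between 8.56 and 13.9 CPM per kilobase in SSMs and between 1.33 and 2.86 in MSMs, and Siglec1 between 1.19 and 9.81 and between 0.111 and 0.835. In MSMs from ndLNs, Siglec1 exceeded between 30.5% and 36.7% of the genes tested, while Cd68 and Cd14 exceeded at least 98.8%.

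Across the 8 libraries, log2 levels of Siglec1, Adgre1, Csf1r and Cd14 had pairwise Pearson r between 0.876 and 0.949, while r between Cd68 and Csf1r was 0.269 and between Cd68 and Csf1 -0.149. These values rest on 4 groups of 2 libraries and are a description. The patterns most like Csf1r among 9996 genes were those of Cd300lf, a myeloid immunoreceptor, Msr1, a scavenger receptor, and Gab1, a signalling adaptor (r between 0.992 and 0.994). For Csf1 they were Ifng, the gene of interferon gamma, Xcl1, a chemokine of NK and T cells, and Paxx, a DNA repair gene (0.984 to 0.99). For Siglec1 they were Gngt2, a G protein subunit gene, Gm9733 and Gm15931 (0.993 to 0.996), and for Adgre1 Plaur, the urokinase receptor gene, Tnfaip6 and Gla (0.975 to 0.984). For Cd68 they were Il1b, the gene of interleukin 1 beta, Aldh2 and Abhd11 (0.99 to 0.995), and for Cd14 Rnf34, the receptor gene Tlr2 and Pxk (0.984 to 0.988).

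Genes around the CSF1 receptor were called in both directions between the subsets. Of 17 genes of its lineage factors and proximal signalling, 4 were higher and 4 lower in SSMs from ndLNs. Their median log2 difference was -0.32, against 0.09 over all genes tested. Of all genes tested, 6.01% were called higher and 6.06% lower here, 5.16% and 3.53% for the subsets in tdLNs, and 1.98% and 1.05% for the nodes of SSMs. The same shares stand beside the list counts below. All 17 genes exceeded the mean count, as did 9, 12 and 9 of the lists of 12, 16 and 10 genes below. Of all genes above it, 25.5% were called in either direction between the subsets in ndLNs. Maf was higher in SSMs by 4.02, and Cebpb by 2.88, while Spi1 was lower, with a log2 fold change of -2.25. Lymphoid genes were higher in the same libraries, and which cells carried the Maf transcript was not tested. In tdLNs, 6 were higher and 1 lower, the latter being Irf8, a factor of monocytes and dendritic cells, at -1.64. Between the nodes of SSMs, 7 of the 17 were called, all higher in tdLNs, among them Spi1 (1.32), the phosphatase gene Ptpn6 (1.36) and the Src family kinase gene Fgr (1.81).

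Of 12 genes of other myeloid growth factors and their receptors, 3 were higher and 3 lower in SSMs from ndLNs. Csf2, the gene of GM-CSF, was higher by 7.38 on the log2 scale, and Flt3, the receptor of dendritic cell progenitors and dendritic cells, and Csf2ra were lower, at -4.29 and -1.85. Between the nodes of SSMs, 3 were higher in tdLNs, among them Csf3r, the G-CSF receptor gene (1.90), and Csf2ra (1.29), and 2 were lower, Kit (-2.61) and Csf2 (-2.28).

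Of 16 further genes of sinus and tissue macrophages, 1 was higher and 2 were lower in SSMs from ndLNs, namely Fcgr1, a high-affinity IgG receptor gene (3.35), and the phagocytic receptor genes Timd4 (-1.91) and Mertk (-3.49). In tdLNs, 4 were higher, including Axl (2.32) and Lyz2 (1.96), and 0 lower. Between the nodes of SSMs, 7 were higher in tdLNs and 0 lower, with Mertk at 5.25, the mannose receptor gene Mrc1 at 4.65, the complement gene C1qb at 3.62 and Axl at 1.58, and the median of the list was 2.21 against -0.04 over all genes. In MSMs, 0 of the 16 were called (edgeR).

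A list of 10 genes held receptor and signalling genes around the complex that CD14 serves, and not only parts of that complex. Of these genes, 0 were higher and 1 lower in SSMs from ndLNs, Cd180 (-2.95). In tdLNs, 2 were higher in SSMs, Tlr2 (1.98) and Tlr4 (2.44). Between the nodes of SSMs, 4 were higher in tdLNs, Ly86 (2.00), Tlr2 (1.60), the adaptor gene Myd88 (1.36) and the kinase gene Irak4 (1.06).

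Of the relatives of the marker genes, Lamp1 and Lamp2, which encode the major lysosomal membrane proteins, were both higher in SSMs from tdLNs than from ndLNs, by 1.13 and 1.29. Adgre4, a relative of Adgre1, was higher in SSMs by 2.36 in ndLNs and 2.78 in tdLNs. Among 8 other Siglec genes, Siglecf was higher (3.60) and Cd22 and Siglecg were lower (-2.71 and -2.02) in SSMs from ndLNs, and 0 were called between the nodes of SSMs or MSMs (edgeR).

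**Figure D3:**
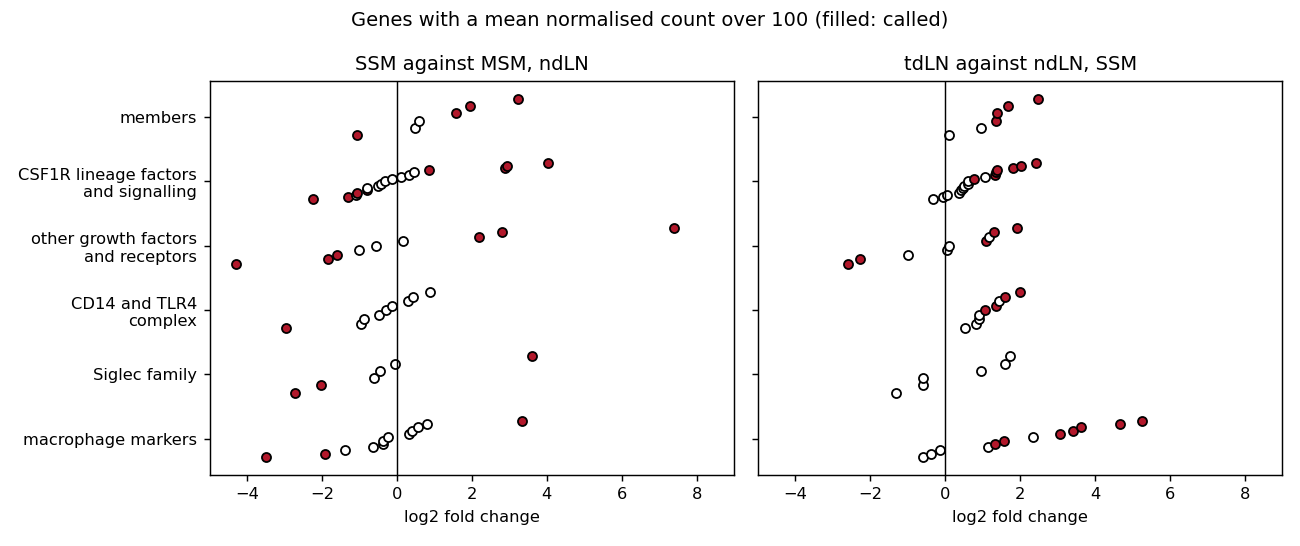
Log2 fold changes (x axis) of the genes with a mean normalised count over 100 in 6 lists (y axis), for SSMs against MSMs in ndLNs (left) and for tdLNs against ndLNs in SSMs (right), with filled points for genes called. Macrophage markers called on the left number 1 on the positive and 2 on the negative side, and on the right 7 on the positive side.

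Markers of other cell types moved with the same comparisons. Between SSMs and MSMs from ndLNs, 11 of 12 T cell genes (the remaining one, Cd8a, was lower), 7 of 8 NK and cytotoxic cell genes, 10 of 10 innate-like lymphoid genes and 7 of 10 mast cell and basophil genes were higher in SSMs, and 6 of 10 dendritic cell genes were lower. The NK and cytotoxic genes together reached 2749 to 3419 CPM in SSMs from ndLNs against 292 to 324 in MSMs from ndLNs, and the dendritic cell genes 1605 to 2342 against 3857 to 4242. In tdLNs, 10 T cell, 7 NK and cytotoxic, 9 innate-like lymphoid and 7 mast cell and basophil genes were higher in SSMs, while 8 dendritic cell genes, Cd8a and Kit were lower. The mast cell and basophil genes together lay between 312 and 689 CPM in MSMs, so that they overlapped with the 398 to 827 of SSMs from tdLNs. Of the lists for B cells, plasma cells, plasmacytoid dendritic cells, neutrophils, eosinophils, lymphatic endothelium and reticular stroma, at most 3 genes each were called in either node type. A call needs the mean count, which only 3 B cell, 3 plasma cell, 4 plasmacytoid dendritic cell and 5 neutrophil genes exceeded. The same held for 3 eosinophil, 1 lymphatic endothelial and 3 reticular stromal genes, so that most of these low numbers were fixed in advance. The summed neutrophil genes lay nonetheless between 22.3 and 559 CPM in SSMs and between 1.09 and 2.23 in MSMs, the eosinophil genes between 12.6 and 103 and between 3.13 and 4.66, and the B cell genes between 106 and 169 and between 22.8 and 56.9. The part of these cells in the subset differences of Csf1, Csf1r, Siglec1 and Cd68 was not tested.

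Between the nodes of SSMs, 6 of 10 innate-like lymphoid genes, 2 of 12 T cell genes and 2 of 10 mast cell and basophil genes were lower in tdLNs, and 1 of the last, Mcpt8, was higher. The innate-like lymphoid genes summed to 1659 to 2061 CPM in ndLNs and 623 to 669 in tdLNs, the T cell genes to 2329 to 2601 and 1175 to 1295, and the mast cell and basophil genes to 2112 to 3111 and 398 to 827. Neutrophil genes summed to 22.3 and 255 CPM in ndLNs and to 182 and 559 in tdLNs, so that the nodes overlapped. The dendritic cell genes summed to 1605 to 2342 CPM in ndLNs and 955 to 1337 in tdLNs, with 1 of the 10 called, as higher. In the opposite direction, the plasma cell genes summed to 334 to 434 CPM in ndLNs and 527 to 601 in tdLNs, and the plasmacytoid dendritic cell genes to 164 to 218 and 290.0 to 295, with 1 gene called, as higher, in the first list and 0 in the second by edgeR. Reticular stromal genes summed to 23.0 to 43.7 CPM in ndLNs and 67.8 to 129 in tdLNs in SSMs, without overlap. In MSMs, they summed to 13.0 to 15.1 and 29.7 to 82.9. Only 3 of the 8 exceeded the mean count, and edgeR called 0 of the 8. Cxcl13, a chemokine gene of follicular stroma, was the highest of them in SSMs from tdLNs, at 27.7 and 90.5 CPM, against 10.6 and 8.95 in those from ndLNs (log2 fold change 2.60, edgeR adjusted p = 0.0488). The part of these cells in the node differences of Siglec1, Csf1r, Cd68 and Cd14 was not tested. The stromal gene Pdgfra was at most 0.630 CPM and the lymphatic gene Prox1 at most 1.20 CPM in any library, and 9 lymphatic endothelial genes summed to 32.6 to 81.7 CPM, of which Pecam1, which leukocytes also express, took 23.8 to 74.5.

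**Figure D4:**
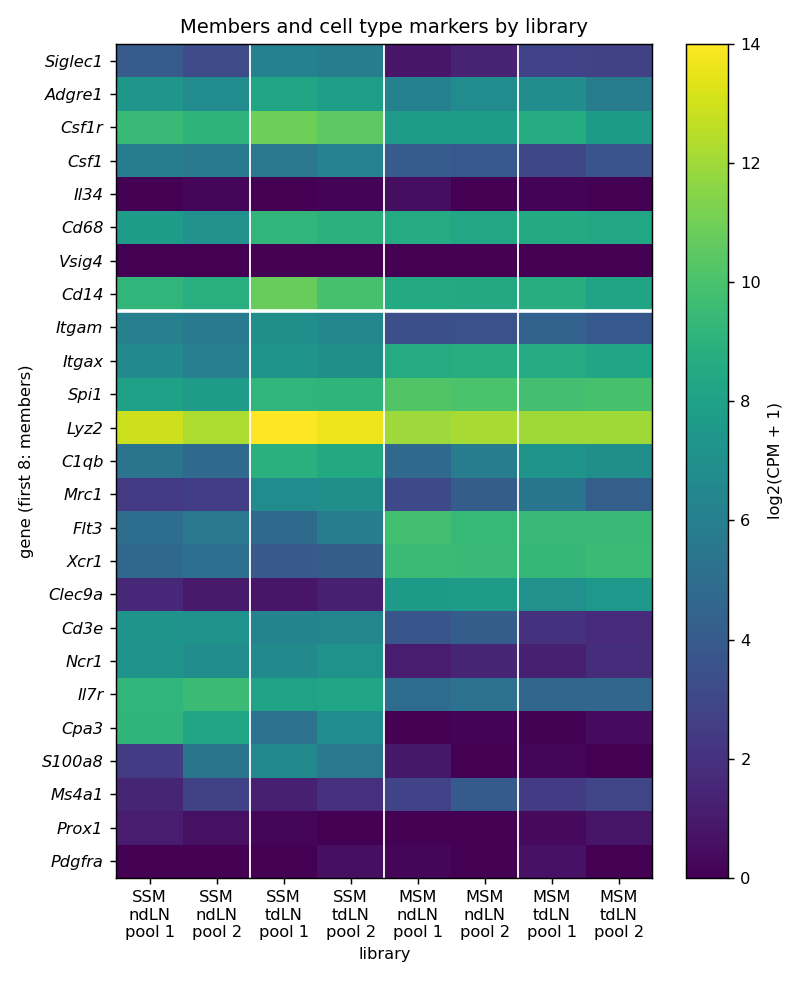
Log2(CPM + 1) (colour, from 0 to 14) of the 8 genes, above the white line, and of 17 sort, macrophage and other cell type genes, below it (y axis), in each of the 8 libraries (x axis). Vsig4 and Il34 are dark throughout, Flt3, Xcr1 and Clec9a are bright in MSMs, and Cd3e, Ncr1, Il7r and Cpa3 are brighter in SSMs, where Cpa3 and Il7r are dimmer in tdLNs.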

How the data were processed

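The deposited table holds raw read counts per gene that the authors made without normalization. Reads were aligned to GRCm38 (mm10), and the submitters' processing notes name bcl2fastq 2.20.0.422, Trimmomatic 0.36 and STAR 2.5.3a. The counting mode and its strand setting are not given in the sources used here. Every column was mapped to a sample (0 unused). Lanes 3 and 4 of a library, whose counts agreed within sampling noise (chi-square per degree of freedom between 0.955 and 1.02, against 52.8 to 95.6 between pools), were summed, so that 16 samples became 8 libraries. GENCODE M21 gave symbols for 55154 IDs, and 2 rows of added sequences with 6 counts (1.66e-06% of all) were left out.

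Genes with at least 10 counts in all and detected in at least 2 samples were kept. Counts were normalised by TMM (factors 0.902 to 1.15) and fitted over all 8 libraries with group and pool by the quasi-likelihood test of edgeR 4.0.16 (R 4.3.3), with Benjamini-Hochberg adjustment over all genes. Intervals use the t quantile of the fit's degrees of freedom. Pool was kept as a replicate block because the methods describe each pool of mice as the source of all 4 groups and model it, although they number 4 pools and the labels 2. The label of an SSM library from tdLNs carries no number, and this library was taken as pool 1. Deviations of same-numbered libraries were correlated by -0.194 to 0.148 between groups. In simulated counts for SSMs against MSMs in ndLNs, 149 of 200 genes changed 4-fold were recovered with 3 false calls among 21073 genes, and 2 of 200 changed 2-fold among 21071 genes. 

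The 8 genes and the 21 gene lists were chosen with earlier results of these data known. From each list, counts and up to 4 genes with the smallest p or that define the list are named, and for each gene the 3 with the highest Pearson r of log2(CPM + 1). Marco, Cd163, Hmgxb3 and some list genes were added with their values known. Alternatives were no replicate block, a DESeq2 1.42.0 Wald test, DESeq2 size factors, no filter, each lane alone, only the groups compared, an adjusted p under 0.05, and each library left out.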

Additional observations from a re-analysis of the deposited data

Results flagged for a closer look

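For 2 of the 8 genes, the difference between tdLNs and ndLNs in SSMs differed from that in MSMs by a test of the difference itself at an adjusted p under 0.05 (quasi-likelihood test of edgeR, Benjamini-Hochberg adjusted), though not under 0.01. At an adjusted p under 0.05 and with the limit on the mean count kept, the same test called 215 of all 21085 genes. For Cd68, the log2 node difference was larger in SSMs by 1.67 (adjusted p = 0.0215), with 591 and 504 CPM in tdLNs against 211 and 134 in ndLNs among SSMs and 375 and 341 against 385 and 326 among MSMs. For Cd14, it was larger by 1.45 (adjusted p = 0.0411), with 1744 and 980.1 CPM against 604 and 436 among SSMs and 417 and 289 against 381 and 351 among MSMs. In both cases, each SSM library from tdLNs lay above each from ndLNs, and the MSM groups overlapped. This order describes the values that the test used, with 2 libraries in each group, and is not further evidence. Over the alternatives, the adjusted p ranged from 2.5e-09 to 0.207 for Cd68 and from 2.4e-05 to 0.322 for Cd14.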

How the results depend on the processing

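Of 654 log2 fold changes of the genes other than Il34 under 16 alternative settings, 557 kept direction and side of the threshold, 65 lost a call, 21 gained one and 11 changed sign. Without the replicate block, 2 of 4 calls remained for the nodes of SSMs and 1 of 2 for the nodes of both subsets, no other count of the 8 genes moved, and 9 of all genes were called in MSMs in place of 5. DESeq2's Wald test called 1 of the 8 genes for the nodes of MSMs, 2 for the interaction of subset and node and 4 for the nodes of both subsets, and 6 in place of 4 for the subsets in tdLNs, adding Adgre1 (adjusted p = 9.63e-06) and Cd68 (0.00152). With only the groups compared and at an adjusted p under 0.05, 6 were called there as well. With only the groups compared, 2 genes were called for the subsets in ndLNs and 0 for the nodes of SSMs, and at an adjusted p under 0.05 the interaction called 2 and the nodes of both subsets 4.

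With each library left out, between 0 and 4 of the 8 genes were called for the subsets in ndLNs, 2 and 5 in tdLNs, 0 and 3 for the nodes of SSMs, 4 and 5 for the subsets over both nodes and 0 and 2 for the nodes over both subsets, and 0 for the nodes of MSMs and the interaction. The lowest counts came without pool 1 of MSMs from ndLNs (0, subsets in ndLNs), without pool 2 of MSMs from tdLNs (2, subsets in tdLNs), without pool 2 of SSMs from ndLNs or either pool of SSMs from tdLNs (0, nodes of SSMs), and without any library but pool 1 of SSMs from ndLNs (0, nodes of both subsets). A count of 2 came without pool 2 of MSMs or pool 1 of SSMs from ndLNs for the subsets in ndLNs, and without pool 1 of MSMs from tdLNs or of SSMs from ndLNs for the nodes of SSMs. The lone library of such a group is assumed to vary like the others.

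Signs changed where differences were small. For Cd68 in MSMs, the node difference was -0.0148 with DESeq2 and -0.0149 with its size factors, and -0.10 to 0.13 with a library left out. Left-out libraries moved it from -0.66 to 0.60 for Adgre1 and from -0.32 to 0.17 for Cd14 in MSMs, from -0.27 to 0.48 for Csf1 in SSMs, and from -0.58 to 0.85 for the interaction of Siglec1. Il34 became 0.16 with DESeq2 and 0.81 on lane 4 alone for the subsets in tdLNs and 0.23 on lane 3 alone for the nodes of SSMs. With libraries left out, Il34 ran from -6.92 to 5.26 and -4.77 to 3.82 for the subsets in ndLNs and tdLNs, -5.24 to 4.85 and -5.85 to 4.69 for the nodes of SSMs and MSMs, -5.26 to 6.85 for the interaction, and -3.50 to 2.63 and -3.61 to 2.06 over both nodes and both subsets. The cause of these changes was not tested, beyond the fewer samples fitted.

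Over all genes, 2545, 1833, 639, 5, 8 and 416 calls (subsets in ndLNs and tdLNs, nodes of SSMs and MSMs, interaction, nodes of both subsets) became 3886, 3023, 1832, 93, 215 and 1373 at an adjusted p under 0.05. DESeq2 gave 3026, 1973, 503, 706 and 1855 from the second on, and 4 for the interaction with its size factors. Lanes 3 and 4 alone gave 24 and 17 for the nodes of MSMs and 25 and 29 for the interaction. Only the groups compared gave 965 for the subsets in ndLNs and 0 for the nodes of SSMs and of MSMs, where 4798 and 2728 genes had an unadjusted p under 0.05. With each library left out, the calls ranged from 1084 to 2022 and 507 to 1872 for the subsets in ndLNs and tdLNs, 2 to 345 and 0 to 3 for the nodes of SSMs and MSMs, 0 for the interaction, 2027 to 2979 (3384 with all libraries) for the subsets over both nodes and 3 to 250 for the nodes of both subsets, and the shares of all genes given beside the 8 genes change with them.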
